A study of Homo sapiens with 6 samples.

Results

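The genes described here are the chemokines and the chemokine receptors, measured by RNA sequencing in TPC-1, a human papillary thyroid carcinoma cell line, with and without overexpression of *RRM2*. *RRM2* encodes the small subunit of ribonucleotide reductase, the enzyme that makes deoxyribonucleotides. Genes were taken by symbol: every protein-coding gene whose symbol starts with CCL, CXCL, CCR, CXCR or ACKR followed by a digit, together with *CX3CL1*, *CX3CR1*, *XCL1*, *XCL2* and *XCR1*. That gave 66 of the 58735 genes listed, of which 44 were ligands and 22 were receptors. Another 3 symbols of the same form (*CXCR2P1*, *CXCL1P1* and *CCR12P*) were not protein-coding genes and were left out.

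Chemokines are small secreted or membrane-bound proteins that steer the migration of leukocytes and other cells along a gradient. They bind receptors that span the membrane and signal through Gi proteins, and their class names (CXC, CC, C and CX3C) describe the spacing of the first cysteines. CXC ligands that carry the residues glutamate, leucine and arginine before these cysteines, called ELR ligands, attract neutrophils through CXCR1 and CXCR2, and many of them are induced through NF-κB. Atypical receptors (ACKR) bind chemokines without Gi signaling and remove them from the surroundings. In thyroid cancer, tumor cells and infiltrating leukocytes are both known sources of chemokines.

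The wild strain, TPC-1 without any vector, gave 3 libraries, and RRM2-OE-TPC-1 gave 3. The overexpressing strain had been infected with a lentiviral vector in which a CMV promoter drives full-length *RRM2*, and was selected with puromycin; the control strain carried no empty vector, so *RRM2*, the vector and the selection cannot be told apart. The titles name *RRM2* for all 3 libraries of that strain, while the genotype field of replicates 2 and 3 names RRM3 and RRM4. The methods call the 3 libraries of a strain biological replicates.

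*RRM2* itself was listed at 9.17, 9.05 and 8.52 FPKM (fragments per unit of gene length and of sequencing depth) in TPC-1 and at 50.4, 47.5 and 47.2 FPKM in RRM2-OE-TPC-1 (log2 fold change 2.43, SE 0.044, adjusted p = 1.11e-08). Reads on genes numbered 14317091 to 17084067 per library, recovered from the FPKM steps. Mitochondrial genes took 4.29% to 5.89% of them. Of the thyroid markers, *PAX8* stood at 67.3 to 70.8 FPKM in TPC-1 and at 56.3 to 59.8 FPKM in RRM2-OE-TPC-1, *TG* at no more than 0.113 FPKM and *NKX2-1* at 0 in every library. The summed level of the 14 thyroid markers was 74.9 to 78.7 FPKM in TPC-1 and 64.6 to 68.0 FPKM in RRM2-OE-TPC-1, and all 4 that were tested passed by adjusted p, 3 lower and 1 higher, with none past the fold threshold. Of 7 epithelial markers 3 were tested, of which 2 passed by adjusted p, both higher, and 1 was called higher. Their summed list level was 43.0 to 47.2 FPKM in TPC-1 and 88.4 to 90.8 FPKM in RRM2-OE-TPC-1. The epithelial keratin *KRT18* stood at 39.4 to 43.0 FPKM in TPC-1 and at 83.7 to 85.9 FPKM in RRM2-OE-TPC-1, and *EPCAM* at no more than 0.125 FPKM. Averaged over all libraries, *KRT8* stood at 3.02 FPKM and *CDH1* at 0.0647 FPKM. None of 17 leukocyte markers reached the level needed for a test; their summed level was 0.899 to 1.10 FPKM in TPC-1 and 0.459 to 0.524 FPKM in RRM2-OE-TPC-1, and the defining marker *PTPRC* was at 0 in 4 libraries and at no more than 0.00685 FPKM in the others. Of 6 endothelial markers, *PECAM1* alone was tested and stood at 0.857 to 1.04 FPKM in TPC-1 and at 0.0268 to 0.0971 FPKM in RRM2-OE-TPC-1 (log2 fold change -2.71, having passed the FPKM minimum through TPC-1 alone). Of 7 fibroblast markers 2 were tested, with a summed list level of 2.79 to 3.19 FPKM in TPC-1 and of 2.79 to 2.96 FPKM in RRM2-OE-TPC-1. The part of these markers in the chemokine results was not tested.

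Most of the family was silent or nearly so in both strains. No read was found in any library for 34 of the 66 genes (51.5%), against 18.4% of all 19951 protein-coding genes. A further 23 genes had reads but stayed under the minimum set for a test, which was 0.5 FPKM and 10 reads, each in at least 3 libraries. The remaining 9 genes, 8 ligands and 1 receptor, were tested; they were 13.6% of the family, against 57.4% of the protein-coding genes. By role, 3 of 6 ELR ligands, 3 of 27 CC ligands, 1 of 5 other CXC ligands, 1 of 3 C or CX3C ligands and 1 of 4 atypical receptors were tested, and none of the 18 signaling receptors.

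**Figure D1:**
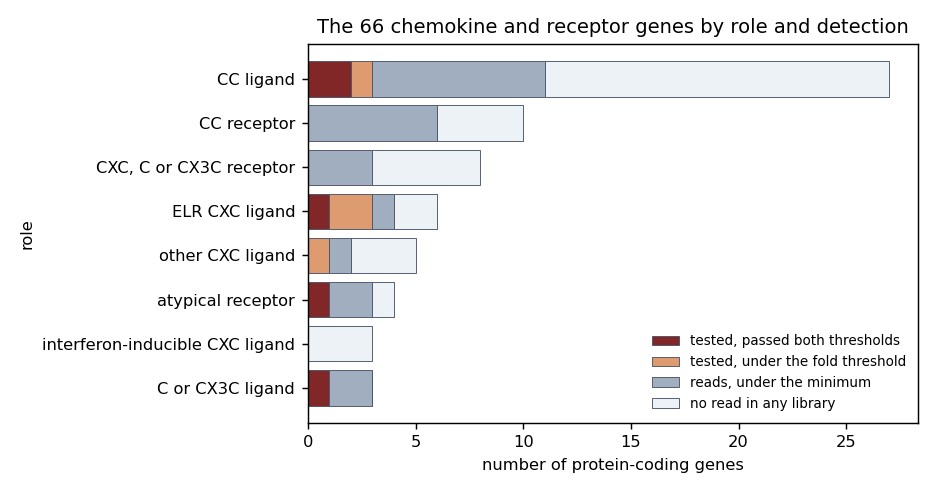
Number of protein-coding genes (horizontal axis) in each role of the family, divided by detection into tested genes past both thresholds, tested genes under the fold threshold, genes with reads under the minimum, and genes with no read in any of the 6 libraries. Tested genes are ligands except for 1 atypical receptor, and 16 of 27 CC ligands had no read.

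Each tested gene was compared between RRM2-OE-TPC-1 and TPC-1 with limma on log2(FPKM + 0.1), p-values adjusted over all 13621 genes tested, and a gene was called when its adjusted p was at most 0.05 and its fold change was at least 1 on the log2 scale in either direction. *CCL26* and *CCL5* were called higher in RRM2-OE-TPC-1, and *CX3CL1*, *CXCL2* and *ACKR3* were called lower. *CXCL1* and *CXCL8* were higher and *CCL2* and *CXCL16* lower by adjusted p with changes under the fold threshold. In RNA from bulk cultures, fewer cells expressing a gene and less RNA per cell cannot be told apart.

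That made 5 of 9 called, 2 higher and 3 lower. Over all genes tested 11.5% were called, 4.48% higher and 6.97% lower. By adjusted p alone all 9 passed, 4 higher and 5 lower, but 67.6% of all genes tested did so too. The libraries of the groups did not overlap for any of the 9, and for 72.2% of all genes tested they did not overlap either. The median log2 fold change was -0.45 over the 9 genes and 0.01 over all genes tested. These counts cover only genes that passed the minimum, which *CCL26* passed through RRM2-OE-TPC-1 alone and *ACKR3*, on FPKM, through TPC-1 alone.

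**Figure D2:**
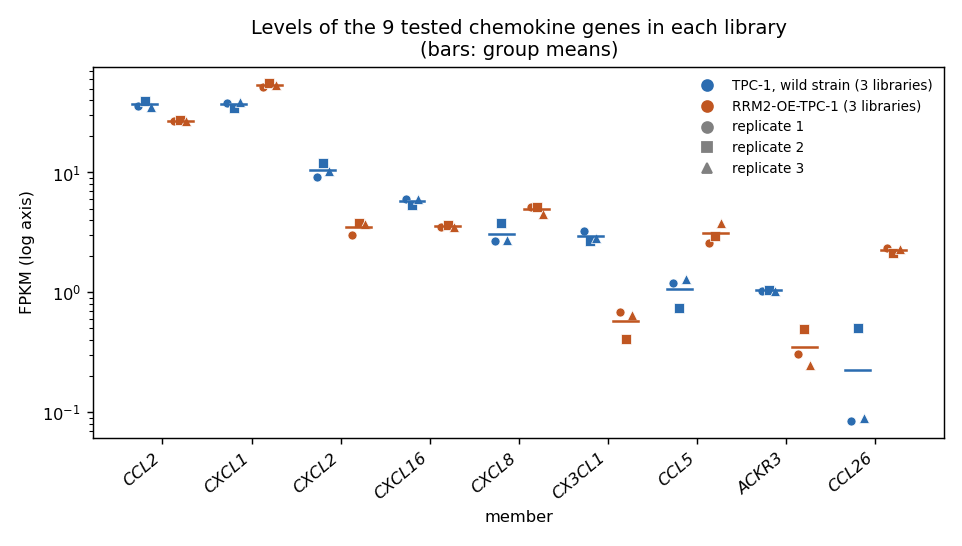
FPKM (vertical log axis) of the 9 tested genes in each of the 3 TPC-1 libraries (blue) and the 3 RRM2-OE-TPC-1 libraries (orange), with marker shapes for the replicates and bars for group means. *CXCL1* and *CCL2* stand above the other genes in all 6 libraries, and the colours do not overlap for any gene.

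Added over all 66 genes, the levels of the strains overlapped, while the make-up of the sum differed. The sum was 99.0, 102 and 99.97 FPKM in TPC-1 and 98.4, 104 and 102 FPKM in RRM2-OE-TPC-1. *CXCL1* and *CCL2* together made up 74.5%, 72.2% and 74.1% of that sum in TPC-1 and 79.4%, 79.5% and 78.5% in RRM2-OE-TPC-1. *CXCL1* per *CCL2* stood at 1.04, 0.866 and 1.10 in TPC-1, about level, and at 1.91, 2.02 and 1.99 in RRM2-OE-TPC-1.

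The ELR ligands lie in a cluster on chromosome 4 that runs over 359 kb from *CXCL8* to *CXCL2*. The 3 that were tested did not move one way. All 6 hold the same element just upstream of their start, so these stretches are shown first. Each line below holds 100 bases in gene direction, from 120 to 21 bases before the RefSeq start on GRCh38.p14. The capitals mark GGAATTTCC, a single exact form of the NF-κB motif.
CXCL1, chr4:73869273-73869372, plus strand: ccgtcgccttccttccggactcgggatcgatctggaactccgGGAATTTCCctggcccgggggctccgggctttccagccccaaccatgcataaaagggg
CXCL2, chr4:74099216-74099315, minus strand: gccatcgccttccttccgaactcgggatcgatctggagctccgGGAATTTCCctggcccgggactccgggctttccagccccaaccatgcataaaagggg
CXCL3, chr4:74038710-74038809, minus strand: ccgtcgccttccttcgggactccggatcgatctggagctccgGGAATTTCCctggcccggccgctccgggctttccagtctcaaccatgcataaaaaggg
CXCL5, chr4:73998698-73998797, minus strand: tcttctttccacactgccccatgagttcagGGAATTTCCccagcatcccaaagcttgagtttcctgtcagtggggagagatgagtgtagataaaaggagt
CXCL6, chr4:73836558-73836657, plus strand: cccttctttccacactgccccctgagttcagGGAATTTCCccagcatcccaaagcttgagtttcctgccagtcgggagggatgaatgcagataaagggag
CXCL8, chr4:73740449-73740548, plus strand: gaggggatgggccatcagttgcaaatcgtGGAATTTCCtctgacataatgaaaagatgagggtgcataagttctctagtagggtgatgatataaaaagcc

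The motif began 78, 77 and 78 bases before the start in *CXCL1*, *CXCL2* and *CXCL3*, and 90, 89 and 91 bases before it in *CXCL5*, *CXCL6* and *CXCL8*. Searched on both strands of the 250 bases before each start, it was found in 145 of 35116 RefSeq promoters (0.413%). Of the 44 family genes with a promoter entry 8 held it, namely the ELR ligands and, on the opposite strand, *CXCL10* and *CXCL11*. These letters are the ones that the ELR windows share, so the shares of the family and of all promoters were not compared. Only this exact string was searched, and a gene without it may hold another form of the motif. In a global alignment of the windows *CXCL1* and *CXCL2* were 94.1% identical, *CXCL1* and *CXCL3* 92.0%, *CXCL2* and *CXCL3* 89.2% and *CXCL5* and *CXCL6* 90.1%, while *CXCL8* was 46.3% to 51.6% identical to the others. A match of letters is not a measured binding site.

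*CXCL1*, a neutrophil attractant that acts on CXCR2 (ENSG00000163739, chr4:73869393-73871242), was listed at 37.7, 34.3 and 38.8 FPKM in TPC-1 and at 51.3, 55.2 and 53.5 FPKM in RRM2-OE-TPC-1. Every overexpressing library was above every wild-strain library, with a log2 fold change of 0.53 (SE 0.052, adjusted p = 4.24e-05). *CXCL2* (ENSG00000081041, chr4:74097035-74099293), a close relative that acts on the same receptor, went the other way, from 9.11, 12.0 and 10.3 FPKM to 3.00, 3.81 and 3.72 FPKM. Its level fell by 1.55 on the log2 scale (SE 0.120, adjusted p = 1.14e-05), and its mean in TPC-1 was 2.98 times that in RRM2-OE-TPC-1. *CXCL1* exceeded *CXCL2* by 4.14, 2.87 and 3.76 times in the TPC-1 libraries and by 17.1, 14.5 and 14.4 times in those of RRM2-OE-TPC-1. The promoter windows of this pair, 100 bases each, were 94.1% identical, and the part of promoter sequence in this split was not tested.

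*CXCL8*, interleukin 8 (ENSG00000169429, chr4:73740506-73743716), stood at 2.69, 3.82 and 2.76 FPKM in TPC-1 and at 5.14, 5.19 and 4.53 FPKM in RRM2-OE-TPC-1. The groups did not overlap, although TPC-1 replicate 2 lay closer to the overexpressing libraries than the other TPC-1 libraries did. The log2 fold change was 0.68 (SE 0.134, adjusted p = 0.00222), and 0.84 without that library. *CXCL3*, the third close relative of *CXCL1*, was low: 0.297, 0.563 and 0.283 FPKM in TPC-1 and 0.436, 0.447 and 0.566 FPKM in RRM2-OE-TPC-1, from 10 to 21 reads per library, with overlapping groups. *CXCL5* and *CXCL6*, whose promoter windows hold the same motif, had no read in any library. The platelet chemokines of the cluster were likewise near 0, with 4 reads for *PPBP*, 1 for *PF4V1* and none for *PF4* over the 6 libraries.

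Some reads of this group could fall on a relative. Of the 50-base windows of *CXCL2* transcripts 12.5% also occur in other genes, mainly *CXCL3*, against 6.01% for *CXCL3*, 4.81% for *CXCL1* and 0 for *CXCL8*. How the authors' counting treated such reads is not given in the sources used here.

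**Figure D3:**
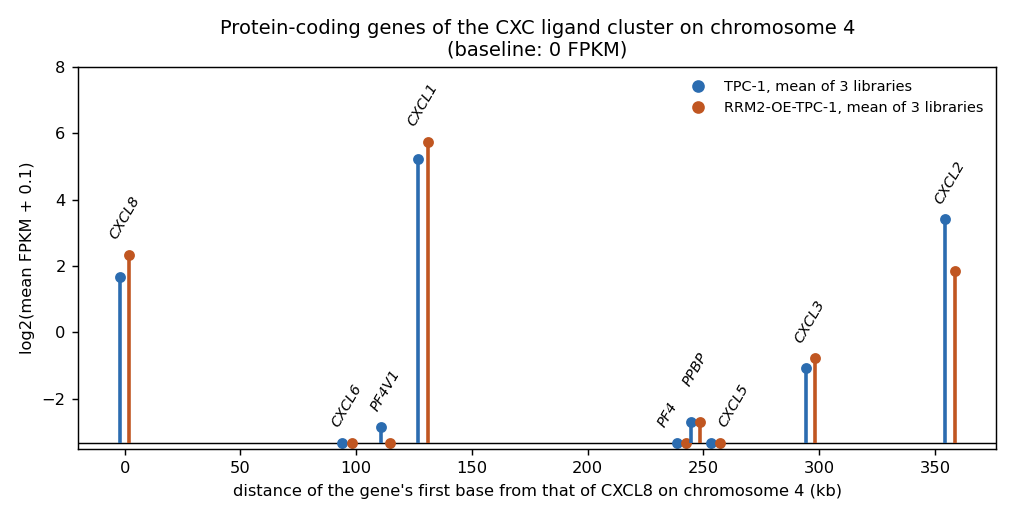
Mean level of 3 libraries per strain, as log2(mean FPKM + 0.1) (vertical axis), of the protein-coding genes of the chromosome 4 cluster, placed by the distance in kb of their first base from that of *CXCL8* (horizontal axis); TPC-1 is blue, RRM2-OE-TPC-1 orange, and the baseline is 0 FPKM. Among the ELR ligands *CXCL2* alone has a blue stem taller than its orange one, and *CXCL5* and *CXCL6* sit on the baseline.

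CX3CL1 and CXCL16 are the ligands of the family that are made as membrane-anchored proteins on a mucin stalk and can be shed. Both were lower in RRM2-OE-TPC-1. *CX3CL1*, fractalkine (ENSG00000006210, chr16:57372458-57385048), was listed at 3.25, 2.67 and 2.86 FPKM in TPC-1 and at 0.682, 0.410 and 0.650 FPKM in RRM2-OE-TPC-1. It fell by 2.18 on the log2 scale (SE 0.180, adjusted p = 1.59e-05), and the TPC-1 mean was 5.05 times the other. With a pseudocount of 1 it fell by 1.32. *CXCL16* (ENSG00000161921, chr17:4733526-4739922), the ligand of CXCR6, stood at 6.00, 5.34 and 6.00 FPKM in TPC-1 and at 3.52, 3.68 and 3.53 FPKM in RRM2-OE-TPC-1. It fell by 0.68 on the log2 scale (SE 0.067, adjusted p = 4.57e-05), under the fold threshold. Its exons overlap those of *MED11* on the opposite strand, which stood at 3.69 FPKM on average, and whether strand was used in counting is not stated. *CX3CL1* lies between *CCL22* and *CCL17* in 57.3 kb of chromosome 16, and neither neighbour had a read.

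Among CC ligands *CCL2*, the monocyte attractant that acts on CCR2 (ENSG00000108691, chr17:34255218-34257203), was the most abundant in both strains. It stood at 36.1, 39.6 and 35.2 FPKM in TPC-1 and at 26.8, 27.3 and 26.8 FPKM in RRM2-OE-TPC-1. The fall was 0.45 on the log2 scale (SE 0.047, adjusted p = 5.93e-05), small beside that of *CX3CL1* but with no overlap between libraries. *CCL5*, or RANTES (ENSG00000271503, chr17:35871491-35880793), a ligand of CCR1 and CCR3, stood at 1.19, 0.747 and 1.29 FPKM in TPC-1 and at 2.56, 2.93 and 3.82 FPKM in RRM2-OE-TPC-1. Its mean was 2.89 times higher in the overexpressing strain, with a log2 fold change of 1.46 (SE 0.213, adjusted p = 0.000414). With a pseudocount of 1 the log2 fold change was 0.98, under the threshold, and 15.2% of its 50-base windows occur in other genes.

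*CCL26*, eotaxin-3 (ENSG00000006606, chr7:75769533-75789896), a ligand of CCR3 that attracts eosinophils, had the largest log2 fold change of the 9 genes. It was listed at 0.0849, 0.505 and 0.0889 FPKM in TPC-1 and at 2.35, 2.15 and 2.31 FPKM in RRM2-OE-TPC-1. These values came from 1, 6 and 1 reads in TPC-1 and from 24, 26 and 26 reads in RRM2-OE-TPC-1. The overexpressing libraries lay close together, while TPC-1 replicate 2 stood above its own group. The log2 fold change was 3.10 (SE 0.424, adjusted p = 0.000291); it was 3.66 without that library, and it moved to 1.43 with a pseudocount of 1.

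Another eotaxin, *CCL11*, also a ligand of CCR3, lay under the minimum. It had 1, 0 and 0 reads in TPC-1 and 5, 8 and 10 reads in RRM2-OE-TPC-1. Pooled over libraries and corrected for depth the ratio was 23.9, with an exact conditional 95% interval of 3.89 to 986. The third eotaxin, *CCL24*, which lies beside *CCL26* on chromosome 7, had 1 read in all. *CCL3L1*, a copy of the gene for the macrophage inflammatory protein *CCL3* (ENSG00000276085, a locus that other tables used here name CCL3L3), had 1, 8 and 0 reads in TPC-1 and 17, 12 and 25 in RRM2-OE-TPC-1, a ratio of 6.24 (3.06 to 14.4). Of its 50-base windows 24.2% occur in other genes. *CCL20*, the ligand of CCR6, had 1, 0 and 1 reads against 3, 2 and 2, a ratio of 3.64 (0.693 to 35.9) that does not exclude equality at this depth. These intervals cover counting error only, not the spread between libraries.

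When every gene with a value was tested, without a minimum, 7 of 32 family genes were called, against 7.37% of all 30958 genes. *CCL11*, with a log2 fold change of 2.21 (adjusted p = 0.00336), and *CCL3L1*, with 2.22 (adjusted p = 0.0359), joined the 5 genes above. With the read minimum alone 6 of 14 were called, against 12.0% of 15279 genes, and *CCL3L1* was the one added (adjusted p = 0.00554). *CCL3L1* passed the read minimum through RRM2-OE-TPC-1 alone, the strain where it was high, and so did *CCL26*.

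The rest of the CC ligands were all but silent, including most of those that share a cluster with an expressed gene. In the 108 kb of chromosome 17 that begin with *CCL2*, the genes *CCL7*, *CCL8*, *CCL13* and *CCL1* had no read. In the 341 kb that begin with *CCL5*, 7 of 11 family genes had none (*CCL16*, *CCL14*, the readthrough gene *CCL15-CCL14*, *CCL15*, *CCL23*, *CCL18* and *CCL4L2*), while *CCL3* had 2 reads and *CCL4* had 1, all in RRM2-OE-TPC-1. The lymphoid attractants *CCL19* and *CCL21* had 2 reads and 1 read. *CCL17*, *CCL22*, *CCL25*, *CCL27* and *CCL28* had none. For a ligand at 0, the 3 reads that a count of 0 allows in a library correspond to 0.0288 to 0.351 FPKM, depending on gene length and depth.

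Of the other CXC ligands, the interferon-inducible *CXCL9*, *CXCL10* and *CXCL11*, which act on CXCR3, had no read in any library. *CXCL12*, the ligand of CXCR4 and ACKR3, *CXCL14* and *CXCL17* had none either. *CXCL13*, the B-cell attractant, had 0, 3 and 0 reads in TPC-1 and 0, 0 and 2 in RRM2-OE-TPC-1. The lymphotactins *XCL1* and *XCL2* had 1 read and 2 reads in all and share part of their sequence.

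**Figure D4:**
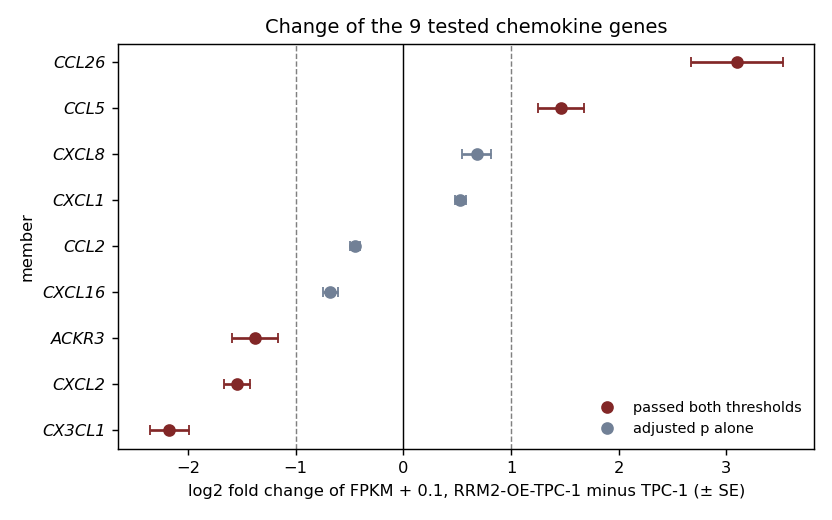
Log2 fold change of FPKM + 0.1, RRM2-OE-TPC-1 minus TPC-1 (horizontal axis, bars are standard errors from limma), of the 9 tested genes; dashed lines mark 1 and -1. *CCL26* and *CCL5* lie beyond the upper line and *ACKR3*, *CXCL2* and *CX3CL1* beyond the lower one.

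The only receptor of the family that reached the minimum was *ACKR3* (ENSG00000144476, chr2:236567787-236582358), the atypical receptor that takes up CXCL12 and CXCL11. It stood at 1.03, 1.05 and 1.03 FPKM in TPC-1 and at 0.306, 0.491 and 0.250 FPKM in RRM2-OE-TPC-1, from 39, 40 and 37 reads against 10, 19 and 9. The TPC-1 libraries were nearly equal and all lay above the others. It fell by 1.38 on the log2 scale (SE 0.213, adjusted p = 0.000590). With a pseudocount of 1 it fell by 0.60, under the fold threshold.

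The other atypical receptors were lower still. *ACKR2*, which clears inflammatory CC chemokines, had 9, 4 and 6 reads in TPC-1 and 2, 0 and 0 in RRM2-OE-TPC-1. The pooled ratio of RRM2-OE-TPC-1 to TPC-1 was 0.110 (0.0124 to 0.454), and in the test without a minimum its adjusted p was 0.0657. Of the 50-base windows of *ACKR2* 21.0% occur in other genes. *ACKR4*, which takes up CCL19, CCL21 and CCL25, had 14, 14 and 3 reads against 13, 6 and 9, with overlapping groups; 34.1% of its 50-base windows occur in other genes. *ACKR1*, the Duffy antigen, had no read.

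None of the signaling receptors was tested, and the receptors of the abundant ligands were at or near 0. *CXCR1* and *CXCR2*, which bind the ELR ligands, had no read in any library. *CCR2*, the receptor of CCL2, had 1 read in all, and *CCR3*, the receptor of the eotaxins, had 2. *CCR1*, which binds CCL5, had none, nor did *CX3CR1*, the receptor of CX3CL1. *CXCR6*, the receptor of CXCL16, had 2, 4 and 4 reads in TPC-1 and 1, 8 and 6 in RRM2-OE-TPC-1, with overlapping groups. *CXCR4*, *CXCR5*, *CCR6* and *CCR8* had no read. For a receptor at 0, the 3 reads that a count of 0 allows in a library correspond to 0.0395 to 0.157 FPKM, depending on gene length and depth. A count of 0 in a library therefore does not exclude a level up to that.

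The signaling receptors with most reads were *CCR7* and *CCR10*. *CCR7*, the receptor of CCL19 and CCL21 that guides cells to lymph nodes, had 22, 18 and 14 reads in TPC-1 and 7, 15 and 6 in RRM2-OE-TPC-1, or 0.526, 0.427 and 0.350 FPKM against 0.193, 0.349 and 0.150 FPKM. The pooled ratio was 0.540 (0.329 to 0.867), and the lowest TPC-1 library and the highest overexpressing library were almost equal. With the read minimum alone its log2 fold change was -0.72 (adjusted p = 0.0320), and with no minimum its adjusted p was 0.176. *CCR10*, the receptor of CCL27 and CCL28, had 10, 15 and 19 reads against 12, 8 and 11, with overlapping groups. Its exons overlap those of *CNTNAP1* on the opposite strand, at 8.04 FPKM on average. *CCR9* had 1, 2 and 2 reads against 0, 1 and 0, *CCR4* had 2 reads in all, *XCR1* had 3 and *CXCR3* had 1.

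**Figure D5:**
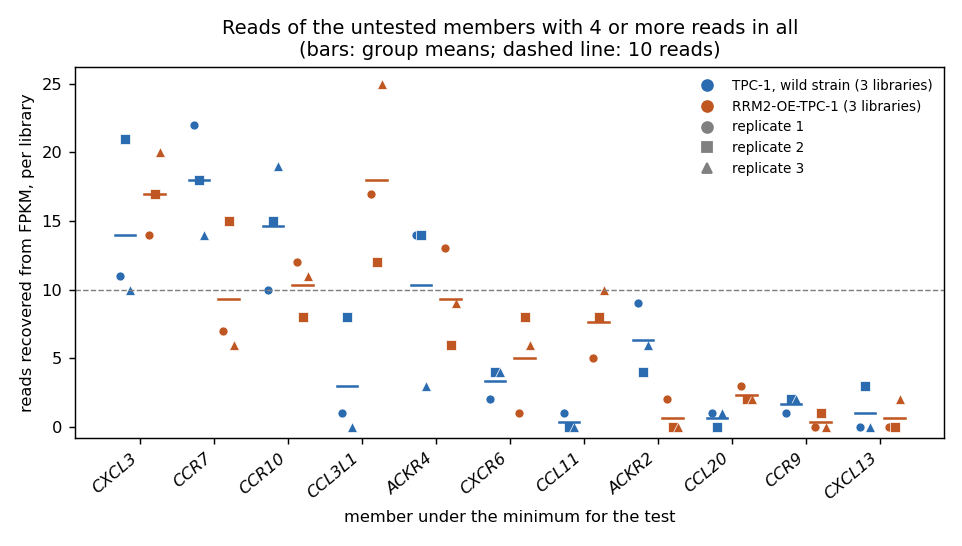
Reads per library (vertical axis) of the untested genes with 4 or more reads in all; 3 TPC-1 libraries are blue and 3 RRM2-OE-TPC-1 libraries orange, marker shapes give the replicate, bars are group means and the dashed line marks 10 reads. *CCL3L1*, *CCL11* and *CCL20* are higher in every orange library and *ACKR2* is lower, *CCR7* is lower in 2 of 3, and the colours overlap for *CXCL3*, *CCR10*, *ACKR4*, *CXCR6* and *CXCL13*.

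Genes around the chemokines were read from lists, each described by its counts and median beside the 11.5% called and the median log2 fold change of 0.01 over all genes tested. The list counts by adjusted p alone stand beside the 67.6% of all genes tested that passed that way. Of 27 chemokine-related genes with other symbols 13 were tested, of which none was called higher and 4 were called lower; 9 passed by adjusted p alone and the median log2 fold change was -0.33. *C5AR1*, the receptor of the chemoattractant complement fragment C5a, was listed at 9.14, 8.46 and 7.57 FPKM in TPC-1 and at 0.141, 0.198 and 0.170 FPKM in RRM2-OE-TPC-1, and fell by 4.98 on the log2 scale (SE 0.126, adjusted p = 5.11e-08), or by 3.00 with a pseudocount of 1. It passed the FPKM minimum through TPC-1 alone, the strain where it was high. *FPR1*, the formyl peptide receptor, another chemoattractant receptor of leukocytes, went from 8.02, 7.38 and 7.21 FPKM to 2.16, 2.36 and 2.37 FPKM and fell by 1.67 (SE 0.071, adjusted p = 5.21e-07). *MIF*, a cytokine that binds CXCR2 and CXCR4, went from 1.67, 1.07 and 1.36 FPKM to 0.624, 0.895 and 0.283 FPKM. These values came from 31, 20 and 24 reads against 10, 17 and 5. It fell by 1.15 (SE 0.335, adjusted p = 0.0153). With a pseudocount of 1 its log2 fold change was -0.58, under the fold threshold. Its adjusted p was 0.0578 without TPC-1 replicate 1 and 0.0683 with no minimum. Without RRM2-OE replicate 3 its log2 fold change was -0.77, and its exons overlap those of *MIF-AS1*. The remaining gene called lower was *CMTM1*, at 2.21, 1.99 and 1.28 FPKM in TPC-1 and at 1.37, 0.518 and 0.771 FPKM in RRM2-OE-TPC-1. Its groups overlapped, and its log2 fold change of -1.03 (SE 0.321, adjusted p = 0.0210) lay just past the fold threshold. *DPP4*, a protease that trims chemokines, stood at 21.1 to 22.2 FPKM in TPC-1 and at 20.1 to 20.8 FPKM in RRM2-OE-TPC-1 (adjusted p = 0.0884).

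Among 56 genes of chemokine receptor signaling 43 were tested, with 2 called higher and 3 called lower. *RGS4*, which shortens Gi signaling, went from 0.0867, 0.111 and 0.0260 FPKM to 1.47, 1.34 and 1.53 FPKM (log2 fold change 3.18, SE 0.234, adjusted p = 8.65e-06). *DOCK2*, a Rac activator of migrating leukocytes, went from 0.109, 0.0945 and 0.0713 FPKM to 1.20, 1.22 and 1.25 FPKM (log2 fold change 2.79, SE 0.180, adjusted p = 4.21e-06). With a pseudocount of 1 the log2 fold changes of *RGS4* and *DOCK2* were 1.19 and 1.03. Both passed the FPKM minimum through RRM2-OE-TPC-1 alone, the strain where they were high, and *RGS4* the read minimum too. *PTK2B*, a tyrosine kinase downstream of chemokine receptors, went from 6.51, 5.88 and 6.16 FPKM to 1.68, 2.05 and 1.80 FPKM, a fall of 1.69 (SE 0.088, adjusted p = 1.46e-06). The other 2 genes called lower were *PREX1* and *ARRB1*. By adjusted p alone 37 of the 43 passed, and the list's median log2 fold change was 0.14.

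Chemokines are held at the cell surface by heparan sulfate. Of 31 genes of heparan sulfate proteoglycans and their enzymes 20 were tested, and *SDC1*, syndecan-1, was the one called, while 15 passed by adjusted p alone and the median log2 fold change was 0.15. It stood at 17.1, 16.0 and 16.9 FPKM in TPC-1 and at 58.2, 54.3 and 54.0 FPKM in RRM2-OE-TPC-1, with a log2 fold change of 1.73 (SE 0.043, adjusted p = 4.92e-08). *SDC4*, at 131 to 142 FPKM, did not pass the test (log2 fold change -0.02, adjusted p = 0.639).

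The 43 regulators of chemokine transcription gave 41 tested genes, with 1 called higher and 3 called lower; 28 passed by adjusted p alone and the median log2 fold change was -0.08. The C/EBP factors *CEBPB* and *CEBPD* went from 81.4, 78.0 and 87.8 FPKM to 30.0, 25.8 and 26.2 FPKM and from 64.8, 60.5 and 64.1 FPKM to 22.4, 21.3 and 20.9 FPKM. They fell by 1.59 (SE 0.066, adjusted p = 4.91e-07) and by 1.55 (SE 0.042, adjusted p = 6.32e-08). *JUND*, an AP-1 subunit, went from 84.0, 71.8 and 87.1 FPKM to 34.7, 29.7 and 34.1 FPKM, a fall of 1.30 (SE 0.084, adjusted p = 4.24e-06). The gene called higher was *TNFAIP3*, an inhibitor of NF-κB that is itself induced through it. The NF-κB subunits *NFKB1* (log2 fold change 0.01, SE 0.047, adjusted p = 0.813) and *RELA* (0.14, SE 0.061, adjusted p = 0.0802) did not pass the test, nor did the inhibitor *NFKBIA* (-0.06, SE 0.063, adjusted p = 0.403). Others of the list passed by adjusted p, under the fold threshold. The subunits *NFKB2* (0.25, adjusted p = 0.000784) and *RELB* (0.30, adjusted p = 0.00475) were higher. So were the inhibitors *NFKBIB* (0.70, adjusted p = 0.000181) and *NFKBIE* (0.58, adjusted p = 0.00044). *BCL3* (-0.81, adjusted p = 2.92e-06) and *NFKBIZ* (-0.19, adjusted p = 0.0437) were lower. Of 17 genes of chemokine mRNA decay, all tested, with a median log2 fold change of 0.04, *ARID5A* alone was called, higher with a log2 fold change of 1.09 (SE 0.157, adjusted p = 0.000378) that was 0.59 with a pseudocount of 1.

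Of 50 cytokines and receptors that act upstream of chemokines 29 were tested, with 3 called higher and 4 called lower; 24 passed by adjusted p alone and the median log2 fold change was -0.18. *IL1R1*, the signaling receptor of interleukin 1, went from 21.7, 22.9 and 21.8 FPKM to 3.59, 3.87 and 4.16 FPKM, a fall of 2.49 on the log2 scale (SE 0.061, adjusted p = 4.29e-08). *LTB*, lymphotoxin beta, was low, at 0.117, 0.0387 and 0.286 FPKM in TPC-1 and at 0.541, 0.913 and 0.900 FPKM in RRM2-OE-TPC-1 (log2 fold change 1.93, SE 0.386, adjusted p = 0.00243); it passed both minimums through RRM2-OE-TPC-1 alone, where it was high. *IFNE*, interferon epsilon, went from 1.26, 1.65 and 1.32 FPKM to 0.516, 0.435 and 0.383 FPKM, a fall of 1.47 (SE 0.164, adjusted p = 9.02e-05). With a pseudocount of 1 the changes of these last genes were 0.64 and -0.74, under the fold threshold. The other genes called were *TNFRSF21* and *IL6*, higher, and *TNFRSF1A* and *IL1R2*, lower. The ligands *IL1B* and *TNF* stood at no more than 0.0405 FPKM and 0.104 FPKM in any library.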

How the data were processed

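RNA of 3 TPC-1 and 3 RRM2-OE-TPC-1 libraries was sequenced. On library preparation the sources differ: the methods give poly(A) selection, while the labels give depletion of rRNA followed by RNase R, which digests linear RNA. Both name a directional kit. Per the methods and the submitters' processing notes, the authors used fastp for trimming, HISAT2 2.0.5 for alignment to GRCh38.p14 and featureCounts 1.5.0 for counting, and deposited FPKM per gene; they tested with DESeq2 1.20.0, which needs counts and was not used here. Gene IDs matched GENCODE 29. In 100% of values above 0 the FPKM steps gave whole reads within 0.01.

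FPKM were analysed on the log2(FPKM + 0.1) scale with limma 3.58.1 (R 4.3.3, variance trend) and Benjamini-Hochberg adjustment over 13621 genes with 0.5 FPKM and 10 reads, each in at least 3 libraries; scripts were tested on simulated data. A fold change on this scale understates that of low genes. An exact permutation test of 3 against 3 libraries cannot go below p = 0.1. Intervals are exact conditional (Clopper-Pearson) at 95% on pooled reads. Promoters came from RefSeq, aligned with Biopython 1.88.

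The family, the gene lists and the tests were chosen with earlier results of these data known. Named were *RRM2*, every family gene and, from each list, the called genes with the 3 largest changes. List genes named beside those (*PREX1*, *ARRB1*, *TNFRSF21*, *IL6*, *TNFRSF1A*, *IL1R2*, *DPP4*, *SDC4*, *NFKB1*, *RELA*, *NFKBIA*, *NFKB2*, *RELB*, *NFKBIB*, *NFKBIE*, *BCL3*, *NFKBIZ*, *IL1B*, *TNF*, *CMTM1*, *TNFAIP3*, *PPBP*, *PF4V1*, *PF4*) and the markers singled out were chosen after their values were seen. Same-numbered libraries of the strains did not deviate together (correlations -0.01, -0.01 and -0.06). Values of some genes are not reported here.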

Additional observations from a re-analysis of the deposited data

How the results depend on the processing

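Alternatives were other pseudocounts, minimums and scalings, voom on recovered reads, a replicate block, leaving out each library and protein-coding genes alone. With a pseudocount of 1, 3 family genes and 716 of all genes were called, against 5 and 1560; with adjusted p alone these were 9 and 9207. Leaving out 1 library at a time gave 5 family genes each time and 1573 to 1608 of all genes. The replicate block gave 5 and 1566; the numbers did not pair the libraries, and the block changed no call of a family gene. Of 135 refits of the tested family genes, 133 kept their call. The exceptions were *CCL5* and *ACKR3* with a pseudocount of 1. No direction reversed, but many of these refits could not reverse one. The groups did not overlap for these genes, so other pseudocounts and leaving out a library had to keep the direction. Other minimums and the replicate block left the fold change itself unchanged. Only the other scalings and voom could have reversed a direction. At this depth genes of a few reads, which were most of the receptors, could not be ranked between strains.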
